A study of Homo sapiens with 2 samples.

Results

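The genes that encode heterogeneous nuclear ribonucleoproteins (hnRNPs) and RNA-binding motif (RBM) proteins were examined in a RIP-seq study of Huh-7 cells. They were taken by symbol: every gene beginning with HNRNP, every RBM symbol made of a number and at most 1 letter, and RBMX. RBM15, RBM15B and symbols of numbered pseudogenes were left out. This gave 59 of the 25556 genes in the deposited table, 24 with an hnRNP symbol and 35 with an RBM symbol. Of these, 50 had a mean of at least 1 RPKM over both libraries (reads per kilobase of exon, scaled to the library's total) and entered the counts below, 22 of them hnRNP and 28 RBM genes. The other 9 fell under that level.

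Huh-7 is a human line derived from a liver carcinoma, and RIP-seq sequences the RNA that an antibody pulls down with a protein from a cell lysate. There were 2 libraries, 1 immunoprecipitate (IP) and 1 input kept from the lysate, both from untreated cells whose genotype is given as WT, and both labelled as poly(A) RNA. The series title and design text name SRSF7, a serine- and arginine-rich splicing factor, and the IP carries the treatment label SPSF7, whereas YTHDF2 is the target of the antibody given in the sample protocol. The libraries are therefore called IP and input here, and which protein was precipitated was not settled by the files. No library of a control antibody was analysed here.

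hnRNPs coat nuclear transcripts as these leave RNA polymerase and influence splice site choice, export, translation and decay. RBM proteins are a looser group joined by an RNA recognition motif, among them subunits of the spliceosome, of the exon junction complex, of RNA decay adaptors and of the pre-ribosome. Several hnRNPs are known to bind their own transcripts and so limit their own level. The measurements here are on the mRNAs that encode these proteins, in bulk RNA, where fewer cells with a transcript and less of it per cell cannot be told apart.

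The mRNAs of the hnRNP and RBM genes made up 2.07% of the IP reads (95% exact binomial interval 2.06 to 2.08) and 1.70% of the input reads (1.69 to 1.72). For the hnRNP genes alone the shares were 1.61% of IP and 1.41% of input reads. For the RBM genes they were 0.462% of IP and 0.299% of input reads. The sums over all members and over hnRNP genes include the read-through gene HNRNPUL2-BSCL2 (3256 IP and 752 input reads). All of its exon bases are shared with other listed genes, so these sums may count the same reads repeatedly. The intervals do not cover that. The median ratio of IP to input over the 50 genes was 0.38 on the log2(RPKM + 1) scale, above the median of 0.14 over all 14057 genes with at least 1 RPKM. Over the 9853 protein-coding genes among the latter it was 0.17. The median was 0.48 over the 28 RBM genes and 0.21 over the 22 hnRNP genes. After scaling to protein-coding reads the members' median was only 0.0057 (all genes -0.16), and with the same RPKM sum it was 1.58 (all genes 1.21). Each scaling moves the ratios of all genes by a common factor. The scalings therefore cannot test whether the members lie above all genes.

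At least 2-fold higher values in the IP on that scale were found for 7 of the 50 genes (14.0%), beside 11.3% of all genes and 8.06% of protein-coding genes. Those 7 were HNRNPUL1, RBM42, RBM19, RBM33, RBM25, RBM10 and the read-through gene HNRNPUL2-BSCL2. None was at least 2-fold lower on that scale, beside 8.25% of all genes and 385 of 9853 protein-coding genes. RBM7 and RBM18, however, had ratios under 0.5 without the pseudocount (0.332 and 0.472). The share of higher genes was thus near that of the whole table and above that of protein-coding genes. All of the 50 but HNRNPUL2-BSCL2 and the pseudogene RBM8B are protein-coding. Their median level was 29.8 RPKM, beside 4.37 RPKM for all genes, so the whole table is an unlike background. With 1 library per group there is no test of any of these differences, and the intervals below cover counting error only. By those intervals (95%, exact, on the ratio of RPKM), 5 genes lay wholly above 2-fold beside 4.06% of all genes, and 0 lay wholly below 0.5 beside 2.42%. The 5 were HNRNPUL1, RBM42, RBM19, RBM33 and RBM25. For 27 of the 50 genes the interval lay above 1, for 9 below 1, and for 14 it held 1. Over all 14057 genes it lay above 1 for 4411, below 1 for 2618, and held 1 for 7028. Among the 9 members below 1, RBM7 and RBM18 reached 1 RPKM only in the input.

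**Figure D1:**
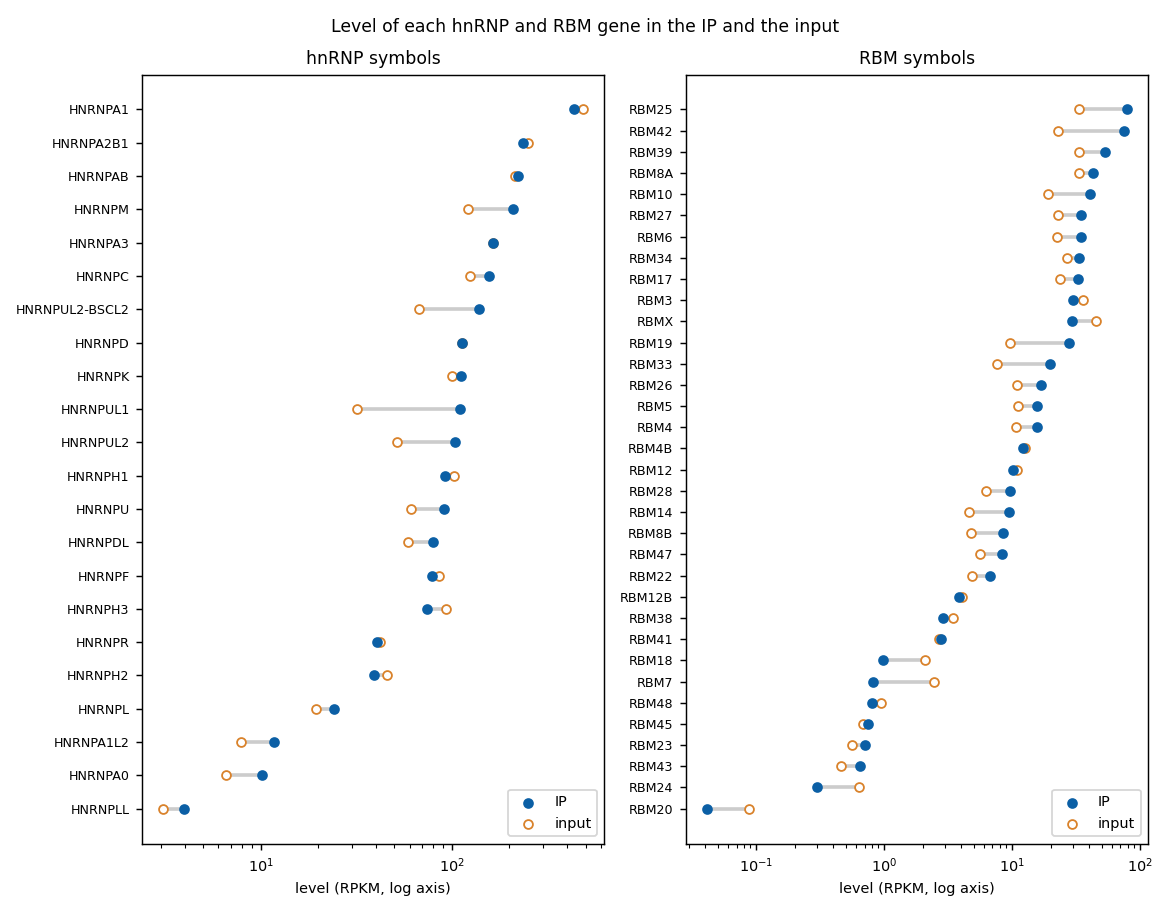
Level of each hnRNP gene (left) and RBM gene (right) in RPKM on a log axis, 1 library per point, with the IP as a filled and the input as an open circle, leaving out the 3 genes with no IP read (HNRNPCL1, HNRNPCL2 and RBM46). HNRNPA1 tops the hnRNP panel with 437 RPKM in the IP and 487 RPKM in the input, and the widest gap there is that of HNRNPUL1.

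The A, B and D types are the abundant core hnRNPs, with paired RNA recognition motifs. HNRNPA1, a splicing repressor and export factor, had the highest level of all members, with 437 RPKM in the IP (13121 reads) and 487 RPKM in the input (6905 reads). Its ratio was 0.896 (0.871 to 0.923). HNRNPA2B1, which also sorts RNAs for transport, had 234 RPKM in the IP and 251 RPKM in the input, a ratio of 0.931 (0.904 to 0.960). These genes were thus close to even between the libraries, a little lower in the IP as deposited and higher in it after scaling to the same RPKM sum (2.14 and 2.23). HNRNPA3 (163 RPKM in the IP, 165 RPKM in the input), HNRNPD, the AU-rich element binder AUF1 (112 and 113 RPKM), and HNRNPAB (221 and 213 RPKM) had intervals that held 1.

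HNRNPDL, a relative of HNRNPD, had 79.2 RPKM in the IP and 58.8 RPKM in the input, a ratio of 1.35 (1.25 to 1.45). HNRNPA0, an intronless gene whose protein binds AU-rich mRNAs, had 10.1 RPKM in the IP and 6.6 RPKM in the input, a ratio of 1.53 (1.28 to 1.84). The intronless HNRNPA1 copy HNRNPA1L2 had 95 IP and 30 input reads, a ratio of 1.49 whose interval (0.982 to 2.33) held 1. The higher ratios of this type thus belonged to its less abundant genes. Over the 8 A, B and D genes the median log2 ratio was 0.02, and 0 of 8 were at least 2-fold higher, beside 11.3% of all genes.

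HNRNPC, which binds uridine tracts and keeps cryptic exons out of mRNA, had 155 RPKM in the IP and 125 RPKM in the input, a ratio of 1.25 (1.19 to 1.3). It turned below 1 (0.951) when the libraries were scaled to their protein-coding reads. Its copies HNRNPCL1 and HNRNPCL2 had 0 IP reads and 1 input read each.

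The F and H types bind runs of guanines near splice sites. All 4 were lower in the IP as deposited, with a median log2 ratio of -0.18, and all 4 were higher in it after scaling to the same RPKM sum (1.91 to 2.20). HNRNPH3 had 74.3 RPKM in the IP and 93.1 RPKM in the input, a ratio of 0.798 (0.746 to 0.853). HNRNPH1 had 92.1 RPKM in the IP and 103 RPKM in the input, a ratio of 0.897 (0.856 to 0.940). HNRNPH2 (39.3 RPKM in the IP, 45.7 RPKM in the input) had a ratio of 0.859 (0.744 to 0.995), and 15.8% of its exon bases are shared with RPL36A-HNRNPH2. HNRNPF (78.5 and 85.3 RPKM) had a ratio of 0.920, and its interval of 0.843 to 1.004 held 1. The 4 ratios were thus within a narrow band, and no gene of this type carried a deposited peak.

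HNRNPK, the C-rich binder with KH domains, had 112 RPKM in the IP and 101 RPKM in the input, a ratio of 1.11 (1.05 to 1.19). HNRNPL, which binds CA repeats, had 24.1 RPKM in the IP and 19.5 RPKM in the input, a ratio of 1.24 (1.10 to 1.40). Both turned below 1 after protein-coding scaling, HNRNPK to 0.851 and HNRNPL to 0.944. HNRNPR, a relative of the translation regulator SYNCRIP, had 40.4 RPKM in the IP and 42.0 RPKM in the input, a ratio of 0.963 (0.893 to 1.04). HNRNPLL, the HNRNPL paralog known from lymphocyte splicing, had 138 IP and 51 input reads, and its interval (0.920 to 1.80) held 1. HNRNPM, a regulator of alternative exons that binds GU-rich RNA, stood apart from these with 208 RPKM in the IP and 122 RPKM in the input, a ratio of 1.71 (1.62 to 1.80). The median log2 ratio of the 5 genes was 0.27.

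The U types join RNA to chromatin and to the response to DNA breaks, and all 3 were higher in the IP in every scaling tried. HNRNPU, the scaffold attachment factor, had 91.0 RPKM in the IP (12086 reads) and 61.0 RPKM in the input (3823 reads), a ratio of 1.49 (1.44 to 1.55). HNRNPUL1 had 111 RPKM in the IP (4362 reads) and 31.8 RPKM in the input (592 reads). Its ratio of 3.48 (3.19 to 3.79) was the highest among the members with at least 100 reads, and its log2 value of 1.77 stood at the 97.2th percentile of all genes. HNRNPUL2 had 103 RPKM in the IP and 51.8 RPKM in the input, a ratio of 1.99 (1.84 to 2.16). The read-through gene HNRNPUL2-BSCL2 had a ratio of 2.04 (1.89 to 2.21), and all of its exon bases are shared with other listed genes, so it repeats reads of HNRNPUL2 and BSCL2 and is no separate measurement.

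**Figure D2:**
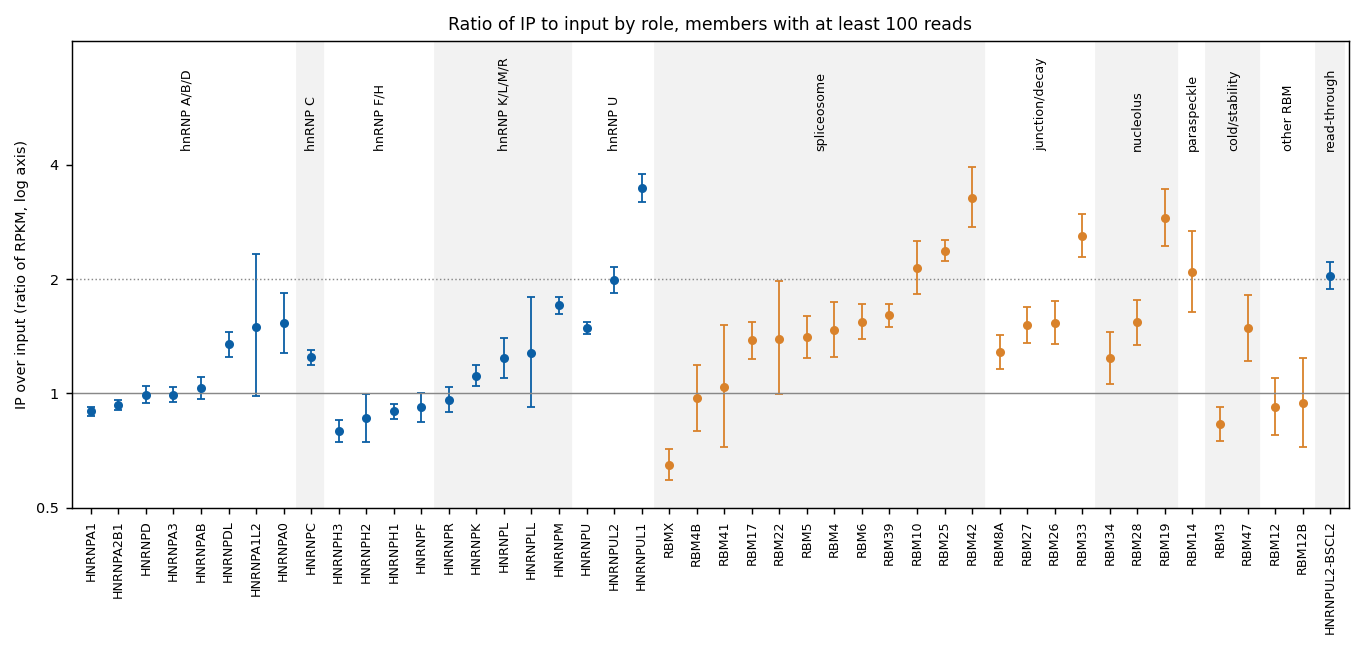
Ratio of IP to input RPKM for the 46 genes with at least 100 reads, grouped by role, on a log axis; bars are exact 95% counting intervals, and lines mark ratios of 1 and 2. HNRNPUL1 (3.48) and RBM42 (3.28) stand highest and RBMX (0.650) lowest.

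Among the 12 RBM genes of the spliceosome and of splice site choice that reached 1 RPKM, the median log2 ratio was 0.49. At least 2-fold higher were 3 of them (25%), beside 11.3% of all genes. RBM42, a protein of the tri-snRNP, had 74.8 RPKM in the IP (973 reads) and 22.8 RPKM in the input (140 reads), a ratio of 3.28 (2.74 to 3.94). RBM25, which works with the U1 snRNP at weak donor sites, had 79.1 RPKM in the IP (5485 reads) and 33.2 RPKM in the input (1087 reads), a ratio of 2.38 (2.23 to 2.54). RBM10, which promotes exon skipping, had 40.7 RPKM in the IP (849 reads) and 19 RPKM in the input (187 reads), a ratio of 2.14 whose interval (1.83 to 2.52) reached below 2. All 3 stayed above 1 in every scaling tried, with ratios of 1.64 to 7.84.

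RBM39, a partner of U2AF in branch site recognition, had 53.3 RPKM in the IP and 33.2 RPKM in the input, a ratio of 1.60 (1.5 to 1.72). RBM6, a neighbour and paralog of RBM5, had 34.2 RPKM in the IP and 22.2 RPKM in the input, a ratio of 1.54 (1.39 to 1.72). RBM5, a regulator of apoptotic splice forms, had 15.7 RPKM in the IP and 11.1 RPKM in the input, a ratio of 1.41 (1.24 to 1.60). Both neighbours on chromosome 3 were thus higher in the IP with overlapping intervals. RBM4, a regulator of alternative exons, had 15.6 RPKM in the IP and 10.6 RPKM in the input, a ratio of 1.47 (1.25 to 1.74). RBM17, a U2-associated factor, had 32.7 RPKM in the IP and 23.7 RPKM in the input, a ratio of 1.38 (1.24 to 1.55). RBM22, a protein of the catalytic core, had 142 IP and 48 input reads, and its ratio of 1.40 (1.00 to 1.98) had an interval that just held 1.

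Others of the spliceosomal list were even or lower. RBM4B, the paralog of RBM4, had 307 IP and 149 input reads, a ratio of 0.972 (0.797 to 1.19), and RBM41, of the minor spliceosome, had 99 IP and 45 input reads, a ratio of 1.04 (0.723 to 1.51). RBMX, also called hnRNP G, had 29.3 RPKM in the IP (1015 reads) and 45.0 RPKM in the input (737 reads). Its ratio of 0.650 (0.590 to 0.715) was the lowest among members with at least 100 reads, although it too exceeded 1 after scaling to the same RPKM sum (1.55). RBM23 (58 IP and 22 input reads) and RBM48 (32 IP and 18 input reads) stayed under 1 RPKM.

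The 5 genes of the exon junction complex, RNA decay and export had a median log2 ratio of 0.58. RBM33, an mRNA export factor that also works with the RNA demethylase ALKBH5, had 19.8 RPKM in the IP (1530 reads) and 7.58 RPKM in the input (277 reads), a ratio of 2.61 (2.29 to 2.97). RBM26 (16.8 RPKM in the IP, 10.9 RPKM in the input) and RBM27 (34.6 and 22.8 RPKM), which link polyadenylated nuclear RNA to the exosome, had ratios of 1.53 (1.35 to 1.75) and 1.52 (1.36 to 1.69). These paralogs agree within sampling noise. Of the exon bases of RBM27, 44.8% are shared with the listed gene AC091959.3.

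RBM8A, a core protein of the exon junction complex, had 42.6 RPKM in the IP and 33.2 RPKM in the input, a ratio of 1.28 (1.16 to 1.42), which became 0.980 after protein-coding scaling. RBM7, of the nuclear exosome targeting complex, was the lowest of the 50 tested genes with 0.817 RPKM in the IP (38 reads) and 2.46 RPKM in the input (54 reads). Its ratio was 0.332 with a wide interval (0.213 to 0.512), and its log2 value was -0.93 with the pseudocount of 1 RPKM. RBM7 passed the level of 1 RPKM only through the input, so its low ratio is no measure of how far genes of this role spread.

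The 3 nucleolar genes were all higher in the IP as deposited, with a median log2 ratio of 0.55. RBM19, which acts in pre-rRNA processing, had 27.8 RPKM in the IP (960 reads) and 9.56 RPKM in the input (156 reads), a ratio of 2.90 (2.45 to 3.46). RBM28, a ribosome biogenesis factor, had 9.66 RPKM in the IP and 6.28 RPKM in the input, a ratio of 1.54 (1.34 to 1.77). RBM34, another nucleolar protein, had 33.0 RPKM in the IP and 26.7 RPKM in the input, a ratio of 1.24 (1.06 to 1.45). Of the exon bases of RBM34, 48.6% are shared with ARID4B, and its ratio became 0.945 after protein-coding scaling.

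RBM14, a coactivator needed for paraspeckles, had 9.5 RPKM in the IP (363 reads) and 4.55 RPKM in the input (82 reads), a ratio of 2.09 (1.64 to 2.69). RBM47, the cofactor of APOBEC1 in editing of apolipoprotein B mRNA in liver and gut, had 8.24 RPKM in the IP and 5.55 RPKM in the input, a ratio of 1.48 (1.22 to 1.82). RBM3, a cold-induced protein, had 29.7 RPKM in the IP and 35.8 RPKM in the input, a ratio of 0.830 (0.748 to 0.920) that became 1.98 with the same RPKM sum. RBM38, which binds AU-rich mRNAs of the cell cycle, had 46 IP and 26 input reads. Over the 3 genes of cold response, RNA stability and editing that reached 1 RPKM the median log2 ratio was -0.20 as deposited.

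RBM12 (397 IP and 203 input reads) and RBM12B (172 IP and 86 input reads) had intervals that held 1. RBM18 had 30 reads in each library (0.979 RPKM in the IP, 2.08 RPKM in the input), a ratio of 0.472 (0.275 to 0.810). Like RBM7, it reached 1 RPKM only in the input, so its low ratio is no measure of spread. These 3 genes without a role list of their own had a median log2 ratio of -0.11 as deposited. The members of muscle and germ cells were near 0: RBM24 had 6 IP and 6 input reads, RBM20, the titin splicing factor of heart muscle, had 2 and 2, and RBM46 had 0 and 2. RBM20, RBM46, HNRNPCL1 and HNRNPCL2 had under 10 reads each over both libraries, so differences there were not detectable at this depth. Of the symbols on the role lists, HNRNPCL3, HNRNPCL4, RBM11 and RBM44 had no entry among the 25556 genes. RBM43 (18 IP and 6 input reads) and RBM45 (21 and 9) stayed under 1 RPKM. The single-exon pseudogene RBM8B, which the symbol rule keeps, had 26 IP and 7 input reads.

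Paralogs did not always have like ratios. Of 16 pairs compared, 6 had intervals that did not overlap, and 4 on intervals from 0.5 of the reads, where HNRNPA1 and HNRNPA3, and RBM4 and RBM4B, overlapped. HNRNPUL1 exceeded HNRNPU by a factor of 2.33 and HNRNPUL2 by 1.74 in its ratio. RBM10 exceeded RBM5 by 1.52, RBM4 exceeded RBM4B by 1.51, HNRNPDL exceeded HNRNPD by 1.36 and HNRNPA3 exceeded HNRNPA1 by 1.11. The other pairs, among them HNRNPH1 with HNRNPH2 and HNRNPF, HNRNPA1 with HNRNPA2B1, HNRNPD with HNRNPAB, HNRNPL with HNRNPLL, RBM5 with RBM6, RBM12 with RBM12B, RBM26 with RBM27, RBM39 with RBM23, and RBM24 with RBM38, had overlapping intervals, wide where reads were few. A quotient of 2 genes in the same libraries is not altered by any of the scalings.

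The deposited peak list marks stretches of exon where the authors' caller found more IP than input signal. Folds, p-values and false discovery rates of peaks are the authors' own, from the same 2 libraries. How the folds were scaled for the unequal read totals is not known, so they are not set against the ratios of the genes. A peak was assigned to the gene with which it shared most exonic bases on its strand. Exon numbers given for peaks count merged exons from the 5′ end. Peaks lay in 20 of the 50 genes, beside 21.4% of all genes and 30.1% of protein-coding genes. With peaks of a false discovery rate of at most 0.05 it was 17 of 50, beside 14.6% of all genes. Among RBM genes 15 of 28 carried a peak, and among hnRNP genes 5 of 22: HNRNPUL1, HNRNPM, HNRNPUL2, HNRNPA0 and HNRNPA1L2.

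Peaks were rarer among genes with few reads. With 200 to 999 IP reads, 7 of 14 members carried a peak, beside 47.8% of all such genes. With 1000 to 2999 IP reads it was 6 of 13 (46.2%) beside 53.5%, and with at least 3000 it was 5 of 14 (35.7%) beside 53.3%. Below 200 IP reads it was 2 of 9 (22.2%) beside 8.03%. Within a read class above 200 the members were thus near or below the background, and the abundant HNRNPA1, HNRNPA2B1, HNRNPU, HNRNPC and HNRNPA3 had 0 peaks.

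Peaks were more frequent at a high ratio of the gene, which rests on the same reads. At a ratio of at least 2, 7 of 8 members carried a peak, beside 44.8% of all genes. From 1.3 to 2 it was 11 of 17, beside 40.4%, and under 1.3 it was 2 of 25, beside 6.66%. The member without a peak in the highest class was HNRNPUL2-BSCL2, whose shared peaks were assigned to HNRNPUL2. Of the 2 with a peak under 1.3, RBM8A had a ratio of 1.28 and RBM3 one of 0.830. The peak of RBM3 covers 51 bases of exon 2 (X:48576169-48576219, plus strand) and has a fold of 3.51 in the authors' deposited table, with a false discovery rate of 0.0820.

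**Figure D3:**
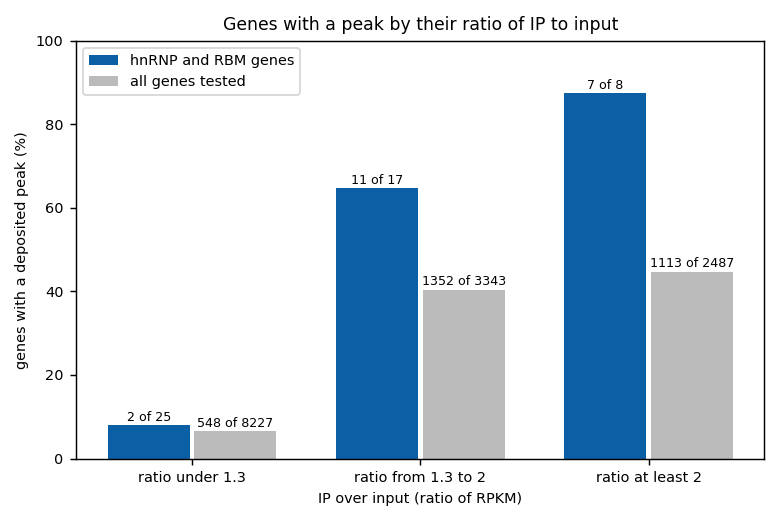
Percentage of genes that carry a deposited peak, by ratio of IP to input RPKM, for hnRNP and RBM genes (blue) and all genes with at least 1 RPKM (grey), with the counts above each bar. In the highest class 7 of 8 members and 1113 of 2487 genes carry a peak.

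HNRNPUL1 (19:41262496-41307787, plus strand, in the files' coordinates, whose build is not named) held 9 of the 54 peaks. Together they cover 4065 bases, which is 60.8% of its 6691 merged exon bases. The widest runs from exon 15 into exon 22, the last (19:41294384-41306627), and covers 2043 exonic bases. The authors' deposited table gives it a fold of 3.23 and a p-value of 3.99e-34. The folds of the 9 peaks in the authors' deposited table ran from 2.02 to 4.16. Peaks on HNRNPUL1 thus lay along most of the mRNA and not in 1 place.

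RBM19 (12:113816738-113966325, minus strand) held 6 peaks over 30.0% of its exon bases. The widest covers 901 exonic bases from exon 5 (12:113947459-113959401), with a fold of 3.34 in the authors' deposited table. RBM33 (7:155644451-155781485, plus strand) held 5 peaks over 19.8% of its exon bases. Their folds in the authors' deposited table were 2.99 to 4.85, and the 5 lay in the 5′ part of its merged exons, from base 1075 to base 6046 of 13132. Beyond that stretch RBM33 carried none.

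RBM42 (19:35629030-35637686, plus strand) held 4 peaks over 27.3% of its exon bases. The first covers 325 bases from the 5′ end (19:35629029-35629592) with a fold of 3.09 in the authors' deposited table, and the last lies in exon 10, the final one. RBM25 (14:73058532-73123899, plus strand) held 4 peaks over 5.56% of its exon bases, with folds of 2.19 to 2.44 in the authors' deposited table, and the lowest p-value there (8.83e-30) was that of a peak over 276 exonic bases at 14:73103330-73105985. RBM10 (X:47145221-47186813, plus strand) had 3 peaks, 1 in its first exon and 2 from exons 17 and 19, with folds of 2.18 to 2.34 in the authors' deposited table.

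HNRNPM (19:8444767-8489114, plus strand) had 3 peaks, 2 of them in exon 15 (19:8485663-8485788 and 19:8486213-8486338) and 1 in its last exon, 17. HNRNPUL2 (11:62712630-62727457, minus strand) had 2 peaks near its 5′ end, the first wholly in exon 1 (11:62726665-62726840) and the second beginning there, with folds of 2.12 and 2.18 in the authors' deposited table. RBM6 had 3 peaks, 2 of them in exon 4, and RBM28, RBM26, RBM47 and RBM8A had 2 each. HNRNPA0, HNRNPA1L2, RBM14, RBM22, RBM27, RBM3 and RBM39 had 1 each. In the authors' deposited table the false discovery rates were 0.0799 and 0.0587 for RBM8A and 0.0820 for RBM22. Like RBM3, these genes thus had no peak at a rate of at most 0.05. RBM4 had none of its own, but 23.8% of its exon bases are shared with the read-through gene RBM14-RBM4.

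The peaks of RBM39 (29.7) and HNRNPA1L2 (25.4) had by far the highest folds among the members in the authors' deposited table. Their p-values there were 0.00924 and 0.0125, far higher than the lowest of HNRNPUL1. The peak of RBM39 covers 616 exonic bases from exon 15 (20:35710391-35713744, minus strand). Both folds are near whole multiples (14.0 and 12.0) of 2.12, the ratio of the read totals of the IP and the input. No source used here says how folds were computed where the input is thin.

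**Figure D4:**
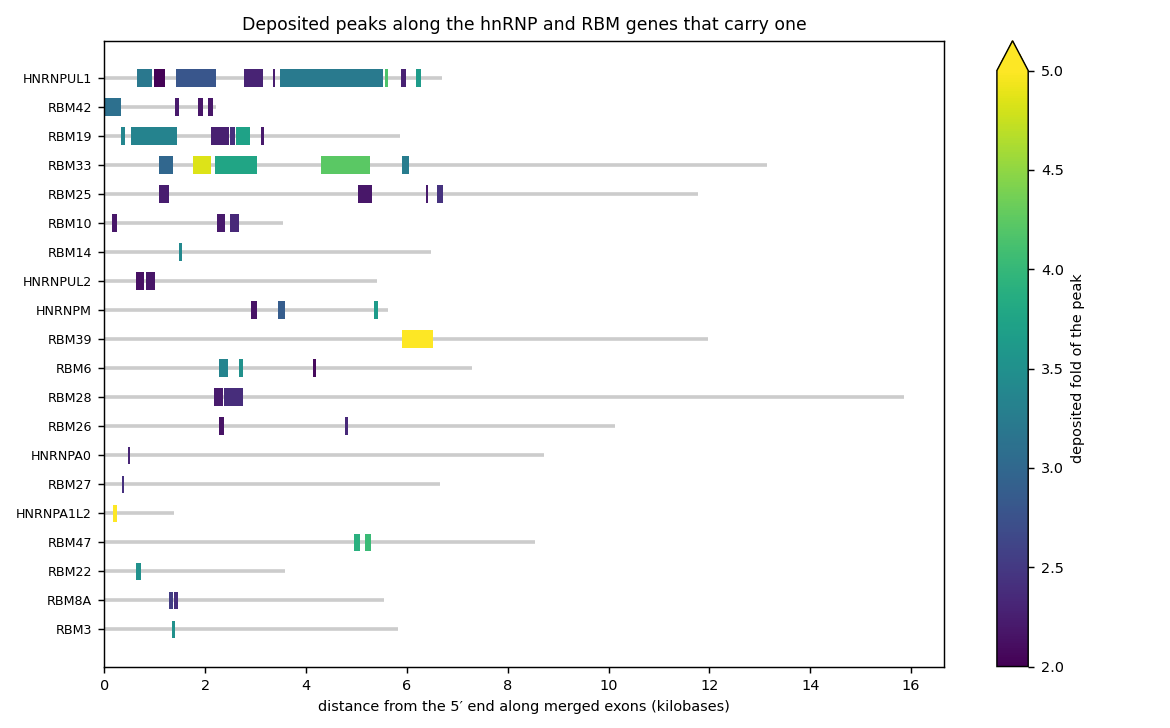
Deposited peaks (coloured blocks) along the merged exons (grey lines, 5′ end at the left, in kilobases) of the 20 genes that carry one, ordered by gene ratio, with the deposited fold as colour. Peaks cover 60.8% of HNRNPUL1, whereas single short peaks mark genes such as RBM27 and HNRNPA0.

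By place, 44 of the 54 peaks (81.5%) had their centre in an internal exon, beside 73.7% of all 7643 peaks. The last exon held 5 (9.26%, beside 17.7%) and the first 3, and 2 lay in single-exon genes. With the merged exons cut into 3 equal stretches, 46.3% of centres lay in the 5′ stretch, 38.9% in the middle and 14.8% in the 3′ one, beside 40.2%, 38.1% and 21.7% of all peaks. Several exons were spanned by 48.1% of the members' peaks and by 48.7% of all peaks. The median fold in the authors' deposited table was 2.43 for the members' peaks, below the 2.71 of all peaks, while 22.2% of the members' peaks had a false discovery rate over 0.05 there, beside 39.7% of all. These shares were not tested against each other, and 9 of the 54 peaks lay in HNRNPUL1 alone.

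The ratio went with the number of merged exons in these genes. Merging joins overlapping exons of a gene, so this number can be smaller than the number of exons in its mRNA. HNRNPU, for example, counts as 4 merged exons over 22512 bases. Without the read-through gene and the pseudogene, the 21 genes of 1 to 9 merged exons had a median log2 ratio of -0.07, the 17 of 10 to 19 exons one of 0.30, and the 10 of at least 20 exons one of 0.86. In the same classes all genes had medians of 0.04, 0.15 and 0.39. None of the 21 genes with few merged exons was at least 2-fold higher, beside 1 of 17 and 5 of 10 in the other classes. The class of few merged exons holds RBM7 and RBM18, which reached 1 RPKM only in the input. Among all genes the shares in these classes were 12.8%, 6.79% and 13.8%, with no steady order. Peaks lay in 5 of 21, 6 of 17 and 9 of 10 members, beside 10.6%, 28.6% and 49.3% of all genes. The share with a peak was thus higher at more merged exons in the whole table too.

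Across the 48 genes, Spearman's rho between the number of merged exons and the log2 ratio was 0.59. Pearson's r, on the log2 of that number, was 0.42. For the 27 RBM genes rho was 0.72, and for the 21 hnRNP genes it was 0.25. The 27 and the 48 include RBM7 and RBM18, which reached 1 RPKM only in the input. Over the 45 genes with at least 100 reads, without RBM7, RBM18 and RBM38, rho was 0.56 and r was 0.41. Over all genes rho was 0.14 and over protein-coding genes 0.20. The exon length of the gene went with the ratio less (rho 0.22 for the 48 genes), and rho with the mean level was 0.01. These are descriptions across genes that share both libraries, and genes are not independent replicates. RBM42, with 10 merged exons and a log2 ratio of 1.67, and RBM14, with 8 and 0.92, lay well above genes with a like number of merged exons.

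**Figure D5:**
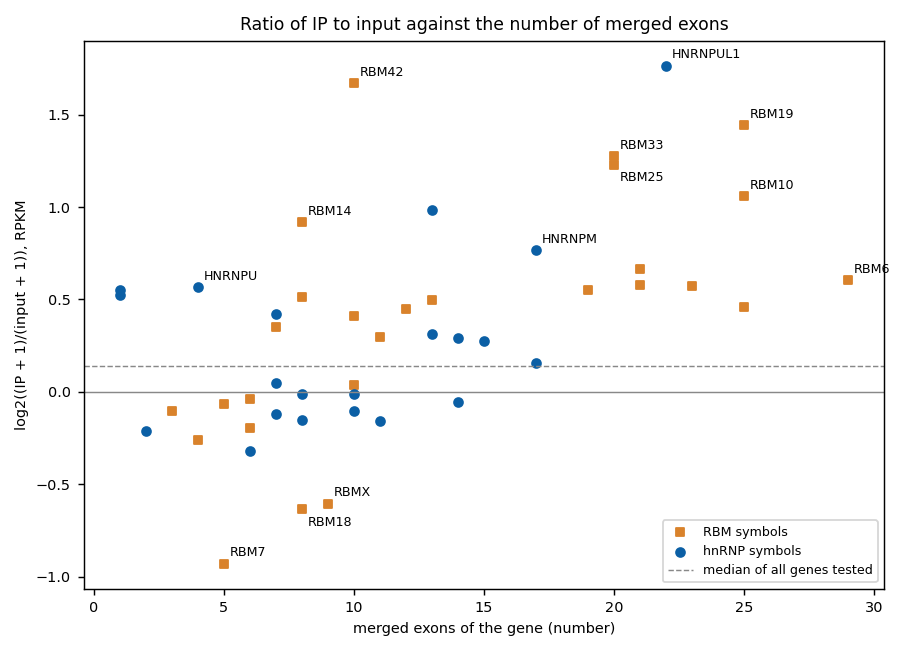
Log2 ratio of IP to input (RPKM + 1) against the number of merged exons for the 48 genes without the read-through gene and the pseudogene, RBM genes as squares and hnRNP genes as circles. All 10 genes with at least 20 merged exons lie between 0.46 and 1.77, above the dashed median of all genes (0.14).

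By chromosome, the 4 members on chromosome 19 (HNRNPL, HNRNPM, HNRNPUL1 and RBM42) had a median log2 ratio of 1.22, beside 0.43 for all 953 genes there with at least 1 RPKM. The 5 on the X chromosome (HNRNPH2, RBM10, RBM3, RBM41 and RBMX) had one of -0.21, beside 0.06 for 386 genes. On X, RBM10 had a log2 ratio of 1.06 and RBM41 one of 0.04, and the other 3 were below 0 as deposited. The 5 members on chromosome 11, without the read-through gene, had a median of 0.51, beside 0.16 for 803 genes. For the 5 on chromosome 5 it was 0.41, beside -0.0038 for 680 genes. Whether base composition, which differs between chromosomes, moves with these ratios was not analysed here.

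Several facts of the whole data set touch these values. The IP held 5897293 reads and the input 2782045, and 90.5% of IP but 69.1% of input reads lay in protein-coding genes. The part of this difference in the members' median was not tested beyond the scaling to protein-coding reads. SRSF7 itself had 33.8 RPKM in the IP and 30.5 RPKM in the input, a ratio of 1.11 (0.977 to 1.26), with 0 peaks. All 8 hepatocyte markers were detected, with summed levels of 5208 RPKM in the IP and 5958 RPKM in the input. Of markers of other cell types, 3 of 3 immune genes summed to 85.6 RPKM in the IP and 148 RPKM in the input, both erythroid genes to 476 and 752 RPKM, both cholangiocyte genes to 39.99 and 52.6 RPKM, 2 of 3 fibroblast genes to 1.23 and 1.11 RPKM, and 1 of 2 endothelial genes to 2.43 and 3.76 RPKM. The markers DCN and VWF had no entry among the 25556 genes, and none of the other markers was at 0. HBB, a globin gene that a liver line is not known for, had 467 RPKM in the IP and 738 RPKM in the input. The part of such RNA in the ratios was not tested.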

How the data were processed

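Per the submitters' processing notes, Trimmomatic and STAR 2.5.3a handled the reads. Gene counter, annotation, genome build and peak caller are named in none of the sources used here. The authors deposited gene levels as RPKM, counted over merged exons and divided by their length and the library total. The header gives no unit, and RPKM was read from the values, as level times length has 1 common sum. Peaks carry, per the file headers, a score, a fold (ratio) and a p-value with its false discovery rate, all deposited by the authors from 1 IP and 1 input. Whole reads were recovered from RPKM: all values (100%) lay within 0.01 of a whole read, and totals were 5897293 in the IP and 2782045 in the input. Of genes with 1 to 10 reads, 78.5% in the IP and 78.1% in the input had an even count, as when both mates of a pair are counted, so intervals may be too narrow, and they were also computed on 0.5 of the reads.

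Computed here were log2((IP + 1)/(input + 1)) for genes whose mean level was at least 1 RPKM, the ratio of RPKM with an exact 95% interval from both read counts (Clopper-Pearson), and the place of each peak along merged exons (at least 1 shared base). Whether peak starts count from 0 or 1 is not stated, so they may be off by 1 base. No test or count model was used, since each group has 1 library. Tools were scipy 1.17.1, numpy 2.4.6 and pandas 2.3.3 under Python 3.11.15, with figures from matplotlib 3.10.9. The intervals were checked on simulated independent counts. That simulation left out the excess of even counts, so it cannot show that the intervals are wide enough here.

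Named genes were, among members with at least 100 reads, the 10 highest and 10 lowest ratios, the 5 with most reads, all with a peak, both of each paralog pair, and the highest and lowest of each role list. Further genes were picked with their values in view. The members, role lists, pairs and rules were chosen with earlier results of these data known. Symbols were matched to RefSeq GRCh38.p14 for gene class (19793 matched, 5763 not), and all 59 members overlap their RefSeq spans. Base composition and protein identity were not computed here. Other pseudocounts, filters, scalings and peak thresholds were tried as alternatives.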

Additional observations from a re-analysis of the deposited data

How the results depend on the processing

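The results depend most on how the libraries are scaled to each other. Scaling to protein-coding reads multiplies each ratio by 0.763, and scaling to the same RPKM sum by 2.39. The members' median log2 ratio of 0.38 became 0.0057 with protein-coding scaling (all genes -0.16) and 1.58 with the same RPKM sum (all genes 1.21). The 7 members at least 2-fold higher became 3 with protein-coding scaling, 44 with the same RPKM sum and 4 with a pseudocount of 5 RPKM. The 0 at least 2-fold lower became 1 with protein-coding scaling, 1 with centring on the median of all genes and 2 with a pseudocount of 0.1 RPKM. With protein-coding scaling, 2 intervals lay wholly above 2 and 1 below 0.5. Members with a peak numbered 12 of 50 with a fold of at least 3 (all genes 12.3%), fewer by construction. Of all 2-fold calls, 57.9% were higher in the IP as deposited, 44.6% with centring, 29.8% with protein-coding scaling and 95% with the same RPKM sum. With the same RPKM sum, ratios turned above 1 for HNRNPA1 (2.14), HNRNPA2B1 (2.23), HNRNPH1 (2.15), HNRNPH2 (2.06), HNRNPH3 (1.91), RBM3 (1.98) and RBMX (1.55). With protein-coding scaling they turned below 1 for HNRNPC (0.951), HNRNPK (0.851), HNRNPL (0.944), RBM34 (0.945) and RBM8A (0.980). The other alternatives, including 0.5 of the reads and leaving out genes with shared exon bases, left these counts within 1.5 times. Leaving out HNRNPUL2-BSCL2 and RBM8B, chosen after seeing the data, gave 6 higher and a median of 0.33. On 0.5 of the reads, a setting also added later for single ratios and pairs, 3 of the 36 intervals apart from 1 came to hold it: HNRNPH2 (0.700 to 1.06), RBM18 (0.215 to 1.04) and RBM34 (0.989 to 1.56). No paired analysis was possible because each group has 1 library. Depth limits genes with few reads, such as RBM7 and RBM18.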

Other observations

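Relatives of the hnRNPs that carry other symbols gave a similar picture. Of 40 such genes, 37 reached 1 RPKM, and their median log2 ratio was 0.40. Of the 37, 7 (18.9%) reached 2-fold in favour of the IP, beside 11.3% of all genes and 8.06% of protein-coding genes. Those that reached 2-fold the other way numbered 0, beside 8.25% of all genes and 385 of 9853 protein-coding genes. Peaks lay in 19 (51.4%), beside 21.4% of all genes and 30.1% of protein-coding genes. High ratios were those of KHSRP, a KH protein of AU-rich mRNA decay (2.88, interval 2.64 to 3.14, 7 peaks), and SFPQ, a paraspeckle protein (2.59, 2.5 to 2.67, 7 peaks). SFPQ had 543 RPKM in the IP and 210 RPKM in the input, more in the IP than any hnRNP gene. Its paraspeckle partners NONO and PSPC1 both had a ratio of 2.20, beside 2.09 for RBM14. The nuclear scaffold gene SAFB2 had 2.37 and RALY, a relative of HNRNPC, 2.03. The lowest of the relatives were MBNL3 with 0.472 (0.387 to 0.574) and PTBP3 with 0.663 (0.536 to 0.821). All these ratios move with the scaling by the same factors as those of the members.

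Among 12 SRSF genes the median log2 ratio was 0.09. Of these, 1 (8.33%, beside 11.3% of all genes) reached 2-fold: SRSF11, with 103 RPKM in the IP and 45.1 RPKM in the input. Peaks lay in 2 of the 12 (16.7%), beside 21.4% of all genes. The lowest was SRSF12 with 28 IP and 30 input reads.

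The 63 numbered hnRNP pseudogenes left out of the members held 1021 IP and 449 input reads, a ratio of 1.07 (0.959 to 1.20), with 0 peaks. The 36 copies of HNRNPA1 came to 4.10% of the IP and 2.97% of the input reads of their parent, a ratio of 1.24 (1.05 to 1.46). No source used here says how reads that match a parent and its copies were counted, so values of HNRNPA1, HNRNPA3 and HNRNPC carry that uncertainty.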
